A study of Mus musculus with 19 samples.

Results

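Gene expression in the soleus, a calf muscle built largely of slow oxidative fibres, was compared between obese diabetic db/db mice and control littermates. The comparison takes every soleus array of the study, which is 7 of its 19 samples, with 4 arrays of db/db mice and 3 of control mice, 1 array per muscle. All mice were males on the C57BL6J background, 12 weeks old and fasted for 5 h before cervical dislocation, and the muscles were snap frozen. The db/db mice carried only mutant copies of the leptin receptor gene (genotype db +/+ in the labels), and the controls carried the mutant allele once (genotype db -/+), so that a mutant allele is present in both groups. The mutation is carried in the whole body, so the loss of the muscle's own receptor and the obesity and diabetes that come with it cannot be told apart. The hour at which the muscles were taken is not given in the sources used here. From each muscle 100 ng of RNA was labelled with Cy3 and hybridised to a 1-colour Agilent mouse array. The study's text speaks of 3 replicates per group, while the labels give 4 db/db and 3 control samples, all of which were used.

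Leptin is made by fat cells in proportion to fat mass and acts on the brain through the long form of its receptor, restraining appetite. Mice that lack a working receptor overeat, become obese and insulin resistant, and carry high levels of leptin, insulin and corticosterone. In skeletal muscle, insulin drives glucose uptake and fatty acids are oxidised in mitochondria. The muscle also holds its own circadian clock, in which CLOCK and BMAL1 (encoded by Arntl) switch on the Per and Cry repressors and output factors such as Dbp. Growth hormone reaches muscle and liver through the transcription factor STAT5, whose targets include Cish and Socs2.

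A value below is the log2 of a probe's processed signal minus the 75th percentile of its array, so that 0 is the brightness of that percentile, and it is called the log2 signal. A difference is db/db minus control on this scale, fitted in limma with the slide as a block, and is given with its standard error. The arrays lay on 2 slides, control 1 and 2 with db/db 1 and 2 on slide 1, and control 3 with db/db 3 and 4 on slide 2. Each slide was also 1 scan session, and these cannot be told apart. In the same fit 5613 of 12815 genes, 43.8%, differed between the slides at an adjusted p of 0.05, so arrays are compared here above all within a slide. The 75th percentile was 153 to 555 intensity units on control arrays and 180 to 686 on db/db arrays. Slow fibre markers were bright on every array: over 5 of them measured on all arrays, the mean log2 signal was 7.03 to 8.10 in controls and 6.67 to 8.23 in db/db muscle. Fast fibre genes were bright too, with a mean over 13 of them of 5.86 to 6.39 in controls and 4.72 to 5.92 in db/db muscle. No other muscle was compared, so these values do not tell which muscle was read.

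Both db/db arrays of slide 1 held a band of spots that stood apart from the rest. In rows 201 to 260 of db/db 1, the correlation with the median of the other 6 arrays was 0.819 to 0.855, and in rows 181 to 240 of db/db 2 it was 0.934 to 0.946, while in all other blocks of 20 rows it was at least 0.947 on every array. These bands held 11.5% and 11.4% of the spots. On db/db 1, 255 genes lay more than 4 on the log2 scale below the other arrays, 240 of them in its band, and on db/db 2 there were 41, 40 of them in the band, against 1 to 10 on the other arrays. Spots with an outlier flag had been left out before these counts, so the spots counted are those that the flags did not catch. Pdk4, the kinase that shuts pyruvate out of mitochondria during fasting, was -4.37 on db/db 1 and 6.28 to 8.08 on the other arrays that measured it, and Nr1d2, a clock repressor, was -5.49 on db/db 1 against 0.73 to 1.98 elsewhere. Both probes lie in the bands, so no direction is given for these genes, although both stay in the counts of their lists. The bands were found after the values had been seen, so the comparison keeps their spots, and the result without them is given beside it.

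**Figure D1:**
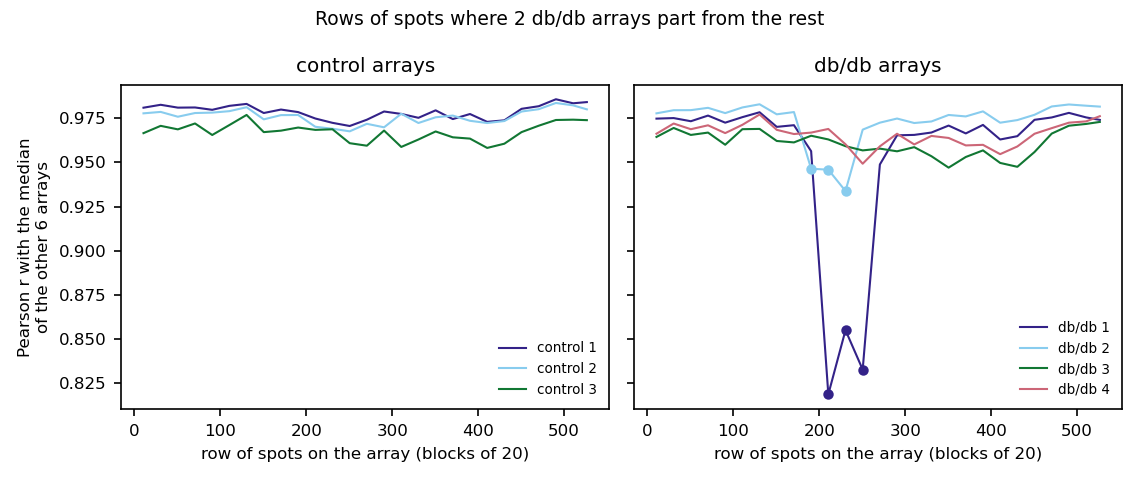
Pearson correlation of each array with the median of the other 6 arrays, in blocks of 20 rows of spots, for the 3 control arrays (left) and the 4 db/db arrays (right). Points mark the bands, where db/db 1 falls to 0.819 and db/db 2 to 0.934.

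The leptin receptor itself gave no usable reading. Of its 2 probes, one (chr4:101461940-101463441, mm9) stayed within background on all 7 arrays. The other (chr4:101485484-101485543) was -2.87, -3.42 and -4.83 on the controls, well above background on 1 of the 3, and -4.56, -4.86, -6.11 and -5.87 on db/db arrays, well above background on none. Lepr therefore did not pass the filter and was not tested. Neither probe is tied to the mutated exon by the files, so this reading is no check of the genotype labels.

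Of the 12815 genes tested, 39 (0.304%) passed the adjusted p of 0.05, 29 higher (0.226%) and 10 lower (0.0780%) in db/db soleus. Their differences ranged from 4.62 ± 0.37 for Per2 to -6.03 ± 0.20 for Mup1. In all 39 the db/db arrays lay wholly above or wholly below the controls over the arrays that measured them, as did 9.33% of all genes tested. At an unadjusted p under 0.05, 2305 genes passed (18.0%), 1207 higher (9.42%) and 1098 lower (8.57%). The counts given for gene lists below stand against these shares of all genes. Without the spots in the bands, 359 of 12098 genes passed (2.97%), 196 higher (1.62%) and 163 lower (1.35%). They included 37 of the 39, and the others, AK029558 and NAP032296-1, could not be tested then. Sv2b and Lep also have their probes in both bands. Without the bands Sv2b passed by another probe, and Lep by the remaining spots of the same probe. The probes of Sema6a and 4933437N03Rik lie in 1 band each. The median difference over all genes was -0.0033 with the bands and 0.04 without them.

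How many genes passed rested on single arrays. Leaving out control 1, control 2, db/db 3 or db/db 4 left 1 gene, Mup1, in each case, leaving out db/db 2 left 7, and leaving out db/db 1 gave 81. Without control 3 the count was 42, 7 higher and 35 lower, of which 8 were among the 39. Slide 2 then held no control, so these differences are those within slide 1 alone. With the replicate number of the labels as the block in place of the slide 1 gene passed, and 360 did so when the bands were also left out. Without the bands, leaving out an array in turn gave 106 to 316 genes.

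**Figure D2:**
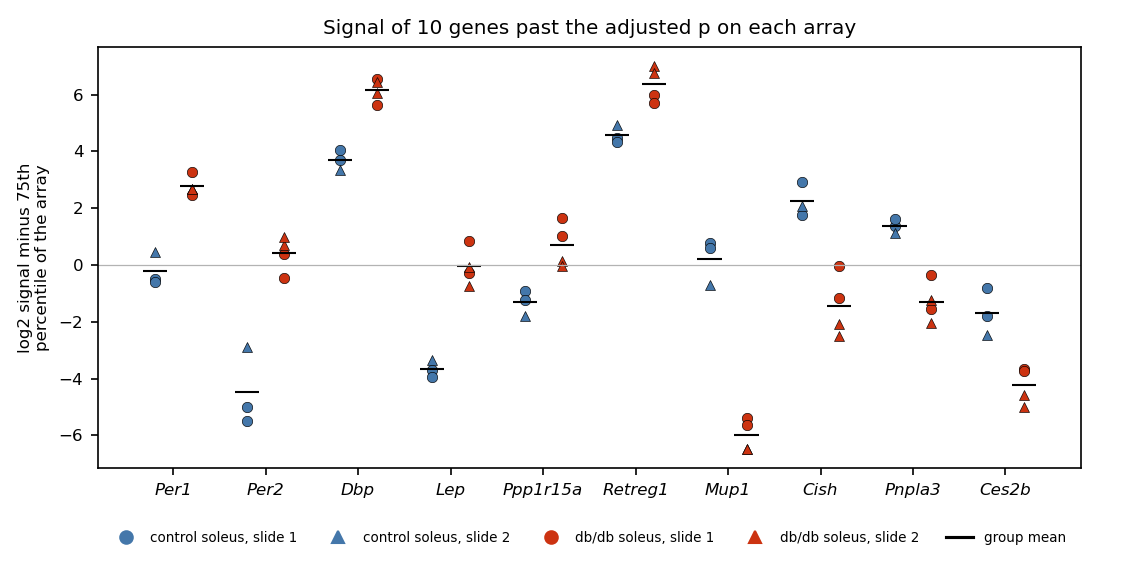
Log2 signal of 10 genes past the adjusted p on each of the 7 arrays, control in blue and db/db in red, circles for slide 1 and triangles for slide 2, with a bar at each group mean. In every gene shown the 4 db/db points lie on one side of the 3 control points.

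**Figure D3:**
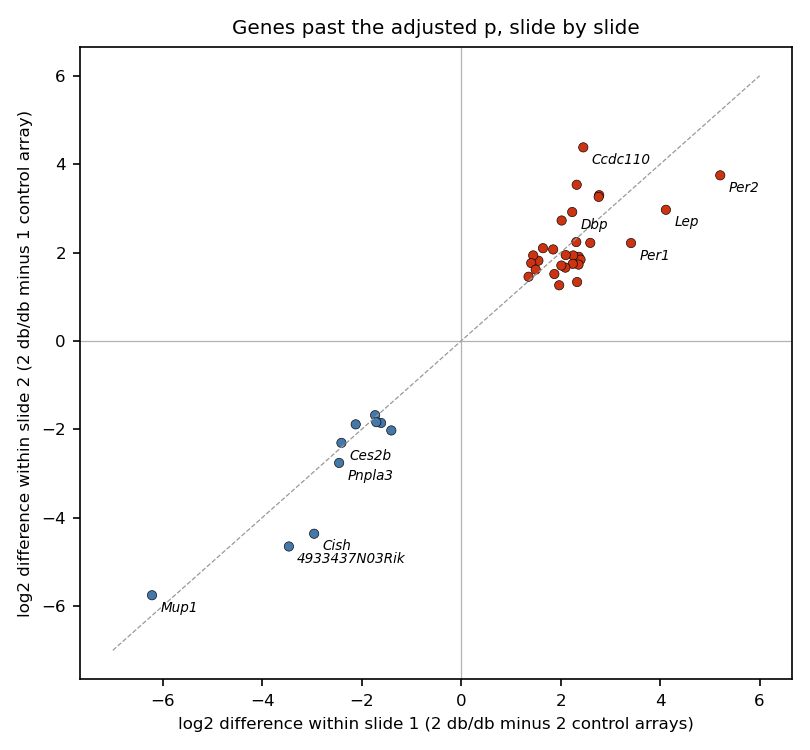
Difference within slide 1 (horizontal, 2 db/db minus 2 control arrays) against the difference within slide 2 (vertical, 2 db/db minus 1 control array), both log2, for the genes past the adjusted p. Rises are red and falls blue, and Mup1 (-6.21 on slide 1, -5.75 on slide 2) and Per2 (5.21 and 3.75) lie farthest out.

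The circadian clock held the largest rise. Per2, a repressor that closes the clock's feedback loop, was -5.50, -4.99 and -2.90 on control arrays 1 to 3 and 0.38, -0.46, 0.72 and 0.98 on db/db arrays 1 to 4. It was well above background on only 1 control array and on all 4 db/db arrays, and the groups did not overlap. The fitted difference was 4.62 ± 0.37 (adjusted p = 0.0143), 5.21 within slide 1 and 3.75 within slide 2. Its partner Per1 was -0.49, -0.60 and 0.46 in controls and 3.26, 2.48, 2.67 and 2.67 in db/db muscle, a rise of 2.93 ± 0.32, or 7.65-fold (adjusted p = 0.0291). Every db/db array stood above every control array for Per1. Dbp, a transcription factor that carries the clock's rhythm to metabolic genes, was 3.68, 4.04 and 3.33 in controls and 6.55, 5.63, 6.43 and 6.06 in db/db muscle. It rose by 2.51 ± 0.30 (adjusted p = 0.0309), with 2.23 and 2.92 within slides 1 and 2, and since its spot was saturated on 1 db/db array no exact fold is given.

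Beyond these 3, no other of the 20 clock genes tested (of 23 listed) passed with the bands kept. 12 of the 20 were higher and 2 lower at an unadjusted p under 0.05, against 9.42% higher and 8.57% lower of all genes, and the median difference was 0.86 (0.95 without the bands), beside -0.0033 over all genes. The groups did not overlap for 8 of them, 7 higher and 1 lower, against 9.33% of all genes. The mean log2 signal over 16 clock genes measured on all arrays was 0.14 to 0.35 in controls and 1.2 to 1.52 in db/db muscle. Without the bands 5 of 18 clock genes were called higher and 1 lower. Those added were Cry2, the Per proteins' partner in repression, at 1.65 ± 0.26 (adjusted p = 0.0580 with and 0.0102 without the bands), and Bhlhe40, a repressor that competes at clock-bound promoters, at 1.55 ± 0.35 (0.107 and 0.0306). The gene lower was Arntl, the activator that the Per and Cry proteins inhibit. It was 2.84, 2.65 and 2.51 in controls and 2.05, 1.2, 1.45 and 1.09 in db/db muscle, a difference of -1.17 ± 0.26 (adjusted p = 0.103 with and 0.0357 without the bands), and the groups did not overlap.

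**Figure D4:**
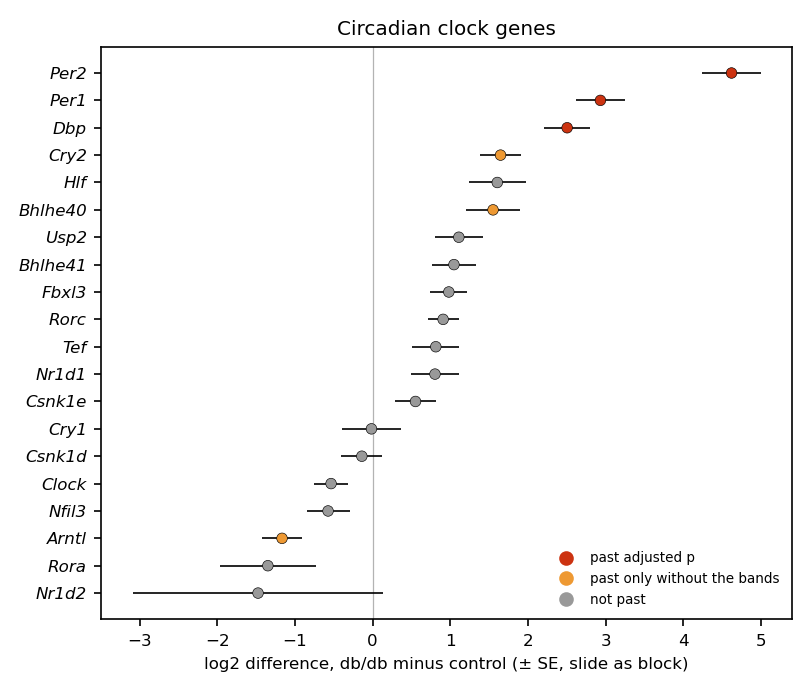
Log2 difference, db/db minus control, of the 20 clock genes tested, as points with the standard error of the fit. Red points (Per2, Per1, Dbp) passed the adjusted p, orange points (Cry2, Bhlhe40, Arntl) passed only without the bands, and grey points did not pass.

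The clock's activators bind the E-box, whose letters are CACGTG on both strands. In RefSeq promoter windows of build GRCm38.p6, cut to the 250 bases before a gene's start, an E-box was found for 6.86% of 27025 genes. Of the clock genes listed, 18 had such a window and 5 of them held an E-box (27.8%): Per1, Cry1, Tef, Bhlhe41 and Ciart. Of the other clock genes called with or without the bands, Dbp, Cry2 and Arntl had a window without an E-box. Per2 and Bhlhe40 had no window. The stretches below are shown because they place the motif in a clock gene that rose and in clock genes that did not pass, with the E-box in capitals and 166, 127, 153 and 60 bases before the start, in that order.
Per1, chr11:69098753-69098818, plus strand: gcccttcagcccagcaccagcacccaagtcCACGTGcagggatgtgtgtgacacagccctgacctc
Tef, chr15:81802516-81802581, plus strand: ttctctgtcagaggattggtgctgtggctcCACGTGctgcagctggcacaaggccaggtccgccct
Bhlhe41, chr6:145865538-145865603, minus strand: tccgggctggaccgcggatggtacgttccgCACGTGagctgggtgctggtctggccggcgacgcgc
Cry1, chr10:85185079-85185144, minus strand: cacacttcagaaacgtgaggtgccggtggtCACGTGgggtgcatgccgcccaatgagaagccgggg
The 4 genes differed in their readout. Per1 rose, while Tef (0.81 ± 0.30) and Bhlhe41 (1.05 ± 0.28) did not pass (adjusted p = 0.229 and 0.139), and Cry1 was -1.82, -2.46 and -3.09 in controls and -1.17, -2.53, -3.44 and -3.69 in db/db muscle, a difference of -0.01 ± 0.38. A match describes these letters and is not evidence of binding.

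Mup1 and Cish, both among growth hormone and STAT5 targets, fell. Mup1, a major urinary protein that the liver secretes under growth hormone control, was 0.79, 0.61 and -0.72 in controls and -5.38, -5.64, -6.46 and -6.48 in db/db muscle. It was not well above background on any db/db array, so its fall is at least 21.3-fold, set against the dimmest reading on those arrays that still counted as well above background. The fitted difference was -6.03 ± 0.20 (adjusted p = 6.7e-05), -6.21 within slide 1 and -5.75 within slide 2. Mup1 passed the adjusted p in all 19 alternatives in which it was tested, and its difference was smallest, at -2.50, with normexp background correction. The urinary protein genes are nearly identical in sequence, so which member this probe (chr4:60511965-60512188, mm9) read is uncertain. Mup4 was -0.52, -0.79 and -3.40 in controls and -1.89, -2.45, -4.89 and -5.62 in db/db muscle, lower within each slide, at -1.65 ± 0.26 (adjusted p = 0.0593 with and 0.0106 without the bands).

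Cish, which STAT5 induces and which in turn dampens cytokine receptor signalling, was 2.93, 1.76 and 2.09 in controls and -0.04, -1.18, -2.06 and -2.48 in db/db muscle. It fell by 3.52 ± 0.46 on the log2 scale, or 11.4-fold (adjusted p = 0.0385), with -2.95 and -4.36 within slides 1 and 2. Socs2, the brake on growth hormone signalling, was -0.49, -0.25 and -0.03 in controls and -0.76, -1.32, -1.03 and -0.83 in db/db muscle. Its difference of -0.76 ± 0.22 did not pass with the bands (0.155) or without them (0.0967), although the groups did not overlap. Igf1, the growth factor that growth hormone induces, was at -0.48 ± 0.24 and did not pass. In all, 2 of 13 tested members were called lower, Mup1 and Cish, against 0.0780% of all genes. Of the 13, 8 were below 0 and 5 above. At an unadjusted p under 0.05, 4 were lower and 1 higher, against 8.57% and 9.42% of all genes. The median was -0.31 (-0.34 within slide 1 and 0.10 within slide 2).

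Leptin mRNA was higher in db/db soleus. Lep, the hormone of fat cells, was -3.70, -3.95 and -3.36 in controls, well above background on 1 of 3 arrays, and -0.27, 0.86, -0.72 and -0.06 in db/db muscle, well above background on all 4. The rise was 3.66 ± 0.38 (adjusted p = 0.0277), 4.12 within slide 1 and 2.97 within slide 2. Its probe has spots in both bands, and the spots of the same probe outside them gave 3.69 ± 0.36 (0.00148). Lep was the only gene called among 17 leptin and adipocyte genes tested, whose median was -0.08, with 4 higher and 2 lower at an unadjusted p under 0.05. The 8 adipocyte markers as a list had a median of -0.09, with 3 above and 5 below 0 and 2 higher and 1 lower at the unadjusted p. Over 7 of them measured on all arrays, the mean log2 signal was 2.70 to 3.62 in controls and 2.78 to 3.34 in db/db muscle. These ranges overlapped, while those of Lep did not. Adipoq, the fat cell hormone adiponectin, was 4.03, 3.21 and 3.56 in controls and 3.70, 4.01, 4.37 and 4.44 in db/db muscle (0.48 ± 0.27, adjusted p = 0.387), and Fabp4, the fat cell fatty acid carrier, was at -0.24 ± 0.23. In whole muscle, fewer cells of a type and less RNA per cell cannot be told apart.

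Of the other fat cell genes none passed with the bands kept. Cfd, the complement protease adipsin, was 7.15, 6.49 and 6.59 in controls and 4.53, 3.37, 5.69 and 5.74 in db/db muscle. Its difference was -2.07 ± 0.48, with an adjusted p of 0.112 with and 0.0289 without the bands. Plin1, the lipid droplet coat of fat cells, was higher by 1.07 ± 0.28 and did not pass either way (0.138 and 0.0613).

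A pair of lipid enzymes fell. Pnpla3, a lipid droplet acylhydrolase whose transcription rises with feeding in liver and fat, was 1.37, 1.61 and 1.12 in controls and -0.37, -1.55, -1.24 and -2.05 in db/db muscle, a difference of -2.57 ± 0.34, or 5.96-fold (adjusted p = 0.0430). Ces2b, a carboxylesterase, was -1.78, -0.79 and -2.48 in controls and -3.64, -3.74, -4.56 and -5.01 in db/db muscle, and was well above background on 1 db/db array only. Its difference was -2.37 ± 0.28 (adjusted p = 0.0309), -2.41 and -2.31 within the slides. Pnpla3 was the only call among 26 genes of lipid synthesis and storage, whose median of -0.07 was near that of all genes.

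No gene of fatty acid handling passed with the bands kept. Among 29 genes of fatty acid uptake and oxidation, 0 were called in limma, 3 were higher and 1 lower at an unadjusted p under 0.05, and the median was -0.09. Slc25a20, the carrier that brings acylcarnitines into mitochondria, was 2.57, 1.17 and 3.89 in controls and 4.24, 4.04, 4.88 and 4.54 in db/db muscle (1.69 ± 0.43, adjusted p = 0.129 with and 0.0407 without the bands). Slc27a4, a fatty acid transport protein, was at 1.08 ± 0.36 (0.193). Among 13 PPAR targets tested, also 0 were called in limma. At the unadjusted p 2 were higher and 4 lower, against 9.42% and 8.57% of all genes. The one farthest from 0 outside the bands was Angptl4, a secreted inhibitor of lipoprotein lipase that fasting induces. It was 6.84, 6.36 and 4.74 in controls and 1.12, 3.72, 1.51 and 3.14 in db/db muscle, which did not overlap, and its difference was -3.48 ± 0.72 (adjusted p = 0.0927 with and 0.0166 without the bands). Txnip, a brake on glucose uptake, was at -1.01 ± 0.35 (0.221) and was not measured on db/db 4.

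Some of the remaining rises belong to stress and membrane turnover. Ppp1r15a, known as GADD34, brings a phosphatase to eIF2α and so restores protein synthesis after stress. It was -0.92, -1.24 and -1.78 in controls and 1.64, 1.01, 0.13 and -0.03 in db/db muscle, a rise of 2.18 ± 0.25, or 4.52-fold (adjusted p = 0.0306). Retreg1, a receptor that delivers endoplasmic reticulum to autophagy, was 4.48, 4.32 and 4.94 in controls and 6.00, 5.70, 7.00 and 6.75 in db/db muscle. It rose by 1.64 ± 0.21 (adjusted p = 0.0370), with the spot saturated on 1 db/db array, so that no exact fold is given. Of 26 heat shock and ER stress genes tested, 0 were called in limma, 3 were higher and 1 lower at an unadjusted p under 0.05, and the median was -0.09. Hspb7, a small heat shock protein of muscle, was at 0.84 ± 0.24 (0.153), and Hspa1b, an inducible HSP70, at 0.70 ± 0.22 (0.182).

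The promoter window of Ppp1r15a held a cyclic AMP response element, the letters TGACGTCA on both strands, 12 bases before the start. It is printed because the gene rose, with the element in capitals (GRCm38.p6).
Ppp1r15a, chr7:45526269-45526310, minus strand: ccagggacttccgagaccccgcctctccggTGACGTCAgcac
The element was found in the windows of 1.77% of 27025 genes, and in 3 of the 18 called genes with a window: Ppp1r15a, Retreg1 and Pnpla3. The same count, 3 of 18, held for the E-box (Per1, Sv2b and Retreg1), found for 6.86% of all genes. It also held for the GAS motif, TTCNNNGAA (Per1, Dbp and Retreg1), found for 8.13%. Ppp1r15a and Retreg1 rose, while Pnpla3 fell.

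Of the other large rises, some started from controls in which the probe was not well above background. Ccdc110, which encodes a coiled-coil protein, was -4.71, -5.18 and -6.11 in controls and -2.92, -2.06, -1.84 and -1.63 in db/db muscle. It was not well above background on any control array, so its rise is at least 2.67-fold. Muc15, a cell surface mucin, was -4.72, -5.07 and -4.17 and -1.45, -2.79, -0.85 and -0.90 in the same order, at least 4.08-fold higher. For Prr32 the values were -5.07, -5.44 and -6.22 and -2.05, -2.93, -2.88 and -3.04, at least 1.75-fold. The fitted differences of these 3 were 3.22 ± 0.44, 2.98 ± 0.34 and 2.96 ± 0.27 (adjusted p = 0.0443, 0.0306 and 0.0277). All 4 db/db arrays were above all 3 controls in each.

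Cdh22 and the transcript ENSMUST00000063955 were measurable in both groups. Cdh22, a cadherin, was -1.68, -1.34 and -1.07 in controls and 1.53, 0.65, 1.23 and 1.06 in db/db muscle (2.44 ± 0.27, adjusted p = 0.0291). ENSMUST00000063955, whose probe lies at chr19:6530886-6530945 (mm9), was -1.28, -1.66 and -2.94 and 1.06, 0.64, 1.06 and 0.13 (2.81 ± 0.35, 0.0349). Ackr4, a receptor that scavenges chemokines, was -3.39, -3.46 and -2.96 and -0.86, -1.48, -1.46 and -0.59 (2.13 ± 0.28, 0.0430). Each of them was well above background on all 4 db/db arrays, Ackr4 on 1 control array and the others on 3. For 6030422H21Rik the log2 signal was -1.59, -2.17 and -0.70 in controls and 0.29, -0.01, not measured and 2.02 in db/db muscle, where db/db 3 was an outlier spot and entered no fit (2.25 ± 0.28, 0.0453). The last members of the largest rises, AK029558 and NAP032296-1, are unannotated probes that were not well above background in controls, at -5.59, -4.89 and -5.54 against -2.82, -3.03, -2.93 and -3.68 for AK029558 and -3.98, -4.04 and -4.56 against -1.22, -2.07, -2.44 and -2.87 for NAP032296-1. Their rises are at least 1.33-fold and 2.60-fold.

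Called genes that neighbour each other included Rgs11, which speeds the shut-off of G proteins, and Arhgdig, a regulator of small GTPases, whose probes lie 11.8 kb apart on chromosome 17. Rgs11 was -2.98, -3.07 and -3.45 in controls and -0.82, -0.52, -1.63 and -1.81 in db/db muscle (2.11 ± 0.22, adjusted p = 0.0277). For Arhgdig these were -1.54, -1.66 and -2.01 and 0.50, 0.96, -0.58 and -0.78 (1.93 ± 0.27, 0.0462), with the higher db/db values on slide 1 in both genes. Dbp and Ppp1r15a lie 186 kb apart on chromosome 7. The transcripts ENSMUST00000119662 and ENSMUST00000055842 have probes 0.562 kb apart on the X chromosome and both fell, by 1.76 ± 0.18 and 1.65 ± 0.23. Whether both probes read the same transcript is not given in the files. No other pair of called genes had probes within 200 kb.

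The other 12 rises lay between 1.39 for the unannotated probe NAP050653-1 and 2.04 for Sv2b, a synaptic vesicle protein. With a known role were Ptger3, the EP3 receptor for prostaglandin E (1.54 ± 0.19), Slc4a3, an anion exchanger (1.73 ± 0.23), Amph, amphiphysin, which bends membranes in endocytosis (1.83 ± 0.25), and Spsb1, a substrate adaptor of ubiquitin ligases (1.69 ± 0.23). They also included Ift81, a part of the transport machinery of cilia (1.55 ± 0.20), Osr2, a zinc finger factor of connective tissue (2.04 ± 0.24), and Acoxl, related to acyl-CoA oxidases (1.89 ± 0.20). Tsga10, A530016L24Rik and ENSMUST00000118129 rose by 1.66, 1.94 and 1.92. Adjusted p values in these 12 were 0.0277 to 0.0453. In controls A530016L24Rik and Acoxl were well above background on 2 arrays each. Osr2, Spsb1 and NAP050653-1 were not well above background on any control array, so their rises are at least 1.1-fold, 2.77-fold and 1.74-fold.

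Of the remaining falls, 3 had little spread within a group. Pcdh12, a protocadherin of endothelial cells, was 1.99, 2.08 and 2.18 in controls and 0.60, 0.25, 0.24 and 0.41 in db/db muscle, a difference of -1.71 ± 0.19 (adjusted p = 0.0306). Sema6a, a transmembrane guidance semaphorin, was -2.70, -2.60 and -2.72 and -4.33, -4.43, -4.34 and -4.47, a difference of -1.71 ± 0.18 (0.0277), and was well above background on 1 db/db array. Its probe lies in the band of db/db 2. The transcript ENSMUST00000119662 was 2.43, 2.60 and 2.54 in controls and 0.87, 0.75, 0.69 and 0.71 in db/db muscle (adjusted p = 0.0277). The SD within a group was at most 0.17 in these 3. For 4933437N03Rik the log2 signal was -1.89, -1.60 and -2.18 in controls and -5.32, -5.10, -6.82 and -6.84 in db/db muscle, not well above background on any db/db array and so at least 4.90-fold lower (-3.94 ± 0.28, 0.00943). AK038006 was well above background on 1 db/db array and was at -2.03 ± 0.24 (0.0309), with -2.70, -3.06 and -2.82 in controls and -5.26, -4.74, -4.97 and -4.44 in db/db muscle, and ENSMUST00000055842 was 1.06, 0.92 and 1.57 in controls and -0.20, -0.63, -0.56 and -0.34 in db/db muscle (0.0453).

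Slow fibre identity showed no called difference. The 8 slow fibre markers, among them Myh7, the slow myosin (8.39, 8.93 and 7.57 in controls, 8.66, 8.40, 7.23 and 7.30 in db/db muscle), had a median of -0.08, with 4 above and 4 below 0 and none at an unadjusted p under 0.05. The smallest p values among them were of Myl3 (adjusted p = 0.408) and Myl2 (0.486), the slow myosin light chains. Myh7 and Myl3 were saturated on all 7 arrays and Myl2 on 3 of each group, so no size of difference is given for them. The wider list of 17 slow fibre genes had a median of -0.15, 0 called in limma and 2 higher and 0 lower at an unadjusted p under 0.05. Those 2 were Lgals4 (0.99 ± 0.23, 0.112) and Pln, the calcium pump inhibitor phospholamban. Pln was -2.16, -3.65 and -2.27 in controls and -0.50, -1.35, -0.15 and -1.18 in db/db muscle (1.83 ± 0.44), with an adjusted p of 0.118 with and 0.0339 without the bands.

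Fast fibre genes had a median of -0.34 over 19 tested, with 0 called in limma and 16 of 19 lower, against 6459 of all 12815 genes. At an unadjusted p under 0.05, 1 was higher and 5 lower, against 9.42% and 8.57% of all genes. Actn3, the fast fibre α-actinin, was 3.87, 4.42 and 4.94 in controls and 3.61, 1.28, 3.19 and 1.81 in db/db muscle (-2.00 ± 0.60, adjusted p = 0.166). Cacng1, a subunit of the muscle calcium channel, was higher by 0.98 ± 0.18 (0.0741 with and 0.0312 without the bands). Chosen after their values were seen, Myh4, the IIB myosin, was 7.32, 8.54 and 6.72 in controls and 6.17, 2.60, 6.32 and 4.36 in db/db muscle, and Pvalb, the calcium buffer parvalbumin, 4.37, 5.48 and 6.28 and 4.00, 1.56, 5.34 and 2.93. Both were lowest on db/db 2, and the groups did not overlap for Myh4 but did for Pvalb. Neither difference passed (-2.68 ± 0.96 and -2.15 ± 0.74, 0.218 and 0.209).

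Genes of immature or denervated muscle were higher in 14 of 20, against 6356 of all 12815 genes, with 0 called in limma and a median of 0.11. Myh3, the embryonic myosin, was 2.82, 3.73 and 3.77 in controls and 4.69, 4.37, 5.68 and 5.50 in db/db muscle, which did not overlap (1.48 ± 0.28, adjusted p = 0.0788 with and 0.0195 without the bands). Ankrd1, a stretch-responsive titin partner, was 1.03, 0.33 and 2.73 and 2.12, 2.27, 3.84 and 4.47, lower on slide 1 than on slide 2 in both groups (1.48 ± 0.26, 0.0682 and 0.0149). Musk, the receptor kinase of the neuromuscular synapse, was -2.63, -2.61 and -1.73 in controls and 0.05, -0.67, -0.79 and -1.18 in db/db muscle, which did not overlap (1.68 ± 0.37, 0.103 and 0.0274). At an unadjusted p under 0.05, 4 genes of the list were higher and 1 lower, against 9.42% and 8.57% of all genes.

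No gene of oxidative metabolism was called. Of 79 oxidative phosphorylation genes tested, 67 had a difference below 0, against 6459 of all 12815 genes, and the median was -0.25 (-0.24 within slide 1 and -0.23 within slide 2). 0 were called in limma, with or without the bands, and 0 reached an unadjusted p under 0.05. The smallest p values were of Cox5b, a cytochrome oxidase subunit that was saturated on all 7 arrays (adjusted p = 0.299), and Ndufa1, of complex I (-0.65 ± 0.30, 0.302). The mean log2 signal over 52 genes measured on all arrays was 6.67 to 7.53 in controls and 6.46 to 7.04 in db/db muscle, ranges that overlapped. The 23 genes of the TCA cycle and pyruvate entry had a median of -0.12, 0 called, and 1 higher and 1 lower at the unadjusted p, with Fh1, fumarate hydratase, at -0.51 ± 0.19 (0.225) and Suclg2, a succinyl-CoA ligase subunit, at 0.56 ± 0.23 (0.258). For 30 genes of glucose uptake and glycolysis it was -0.18, 0 called, 0 higher and 2 lower at the unadjusted p. Pgk1, phosphoglycerate kinase, was at -0.46 ± 0.19 (0.261).

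The study's own question turned on class IIa histone deacetylases, which repress MEF2 factors, and on the coactivator PGC-1α, the driver of mitochondrial genes. Hdac4 was 1.64, 2.07 and 3.31 in controls and 1.98, 2.00, not measured and 3.63 in db/db muscle (0.20 ± 0.22, adjusted p = 0.646). Hdac5 was 3.76, 3.32 and 5.54 and 3.65, 3.44, 6.00 and not measured (0.16 ± 0.24, 0.742), and its difference was -0.03 under quantile normalization. Ppargc1a, which encodes PGC-1α, was 2.96, 2.24 and 1.97 and 2.81, 2.51, 2.85 and 1.85 (0.19 ± 0.31, 0.766), -0.05 with normexp background correction and -0.00122 without db/db 3. For all 3 the groups overlapped, and the direction of the latter pair was not fixed. Hdac4 and Hdac5 were brighter on slide 2 in both groups. The list of 23 such genes had a median of 0.20 (0.06 within slide 1 and 0.34 within slide 2), 0 called in limma, and 4 higher and 0 lower at an unadjusted p under 0.05. Prkd1, a kinase that exports class IIa deacetylases from the nucleus, was -0.08, 0.28 and 1.05 in controls and 1.21, 0.55, 2.04 and 1.80 in db/db muscle (0.82 ± 0.23, 0.155), and Camk2b, a calcium-dependent kinase that also targets them, was at 0.54 ± 0.20 (0.231).

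Insulin signalling genes (24 tested, median 0.21) and leptin receptor signalling genes (8 tested, median 0.08) held 0 calls in limma, with 3 and 1 higher and 3 and 0 lower at an unadjusted p under 0.05. Irs1, the insulin receptor's docking protein, was 5.50, 5.83 and 6.62 in controls and 4.86, 4.44, 6.34 and 6.31 in db/db muscle (-0.73 ± 0.24, adjusted p = 0.193). Its probe lies in both bands, and without them another probe gave 0.60 (0.267), so no direction is given. Tbc1d1, a target of AKT and AMPK in glucose uptake, was at 0.88 ± 0.29 (0.194). Socs3, which leptin and other cytokines induce and which inhibits their receptors, was 1.91, 1.86 and 1.41 in controls and 2.80, 2.67, 1.63 and 2.09 in db/db muscle (0.69 ± 0.21, 0.17), and the phosphatase Ptpn11 was at -0.53 ± 0.25 (0.311).

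Glucocorticoid-induced genes were higher in 11 of 16 and FOXO and muscle atrophy genes in 16 of 21, with medians of 0.41 and 0.28 and 0 called in limma in either. Over all genes, 6356 of 12815 were higher. At an unadjusted p under 0.05, 4 and 4 were higher and 0 and 1 lower, against 9.42% higher and 8.57% lower of all genes. Fkbp5, the glucocorticoid receptor's chaperone and induced target, was -2.27, -1.5 and -0.23 in controls and -0.69, -1.29, 0.87 and 1.39 in db/db muscle (1.08 ± 0.29, adjusted p = 0.146). The second smallest p was of Mt2, a metallothionein (0.66 ± 0.23, 0.217). Mstn, myostatin, the secreted inhibitor of muscle growth, was -2.76, -3.01 and -3.12 in controls and -4.60, -3.63, -4.13 and -4.52 in db/db muscle, which did not overlap. Its difference was -1.22 ± 0.28, with an adjusted p of 0.107 with and 0.0372 without the bands. Eif4ebp1, a brake on translation that FOXO induces, was at 0.71 ± 0.22 (0.171).

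Interferon response genes were lower in 21 of 24 tested, and 11 were lower and 0 higher at an unadjusted p under 0.05, against 8.57% and 9.42% of all genes. The median was -0.63 (-0.65 within slide 1 and -0.54 within slide 2). 0 were called in limma with the bands and 2 of 21 were called lower without them, Oasl2 and Isg15. Isg15, a ubiquitin-like antiviral protein, was 0.07, -1.0 and -1.77 in controls and -2.09, -2.22, -3.13 and -2.77 in db/db muscle (-1.49 ± 0.30, adjusted p = 0.0874 with and 0.0239 without the bands). Oasl2, an oligoadenylate synthetase-like protein, was 0.46, 0.66 and 1.31 and -0.85, -0.65, 0.16 and 0.67, lower within each slide (-1.15 ± 0.22, 0.0788 and 0.0276). Oas1a, another of that family, had the smallest p with the bands (-1.68 ± 0.28, 0.0634) but its probe lies in them. For 8 of the 24 the groups did not overlap, all lower in db/db muscle, against 1196 of 12815 genes (9.33%), 586 of them lower. The mean log2 signal over 22 of the genes was 0.74 to 0.99 in controls and -0.14 to 0.41 in db/db muscle.

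Among matrix genes no member passed with the bands kept. Collagens and matrix genes had a median of -0.49 over 24 tested, 18 of them below 0, against 6459 of all 12815 genes. At an unadjusted p under 0.05, 1 was higher and 7 lower, against 9.42% and 8.57% of all genes. With the bands 0 were called in limma, and without them 1 was called higher and 1 lower of 22. The gene lower was Col1a1, fibrillar collagen I, at 6.79, 7.17 and 6.84 in controls and 5.13, 4.67, 5.58 and 6.62 in db/db muscle (-1.54 ± 0.38, adjusted p = 0.124 and 0.0399). The gene higher was Ccn2, a matrix protein that TGF-β and stretch induce, at 3.99, 3.90 and 5.17 and 4.88, 5.43, not measured and 6.66 (1.30 ± 0.24, 0.0846 and 0.0267). Col15a1 was at -1.06 ± 0.24 (0.110), with its probe in both bands.

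The 12 endothelial markers were below 0 in 12 of 12, against 6459 of all 12815 genes, with a median of -0.49 (-0.30 within slide 1 and -0.86 within slide 2). At an unadjusted p under 0.05, 6 were lower and 0 higher, against 8.57% and 9.42% of all genes. Over 10 of the markers measured on all arrays, the mean log2 signal was 1.66 to 1.98 in controls and 0.87 to 1.5 in db/db muscle. Without the bands 3 of 12 were called lower: Cldn5, of the tight junction, Kdr, a VEGF receptor, and Cdh5, VE-cadherin. Cldn5 was 3.55, 3.05 and 1.86 in controls and 2.12, 1.90, -0.20 and -0.13 in db/db muscle (-1.59 ± 0.24, adjusted p = 0.0569 with and 0.0101 without the bands). Kdr was 2.46, 2.27 and 3.26 and 0.92, 1.14, 2.43 and 1.76 (-1.27 ± 0.23, 0.0720 and 0.0207), and Cdh5 was at -1.18 ± 0.29 (0.119 and 0.0465). Pecam1 and Vwf, which also define this cell type, were at -0.29 ± 0.27 and -0.26 ± 0.48 and did not pass. The fall of Pcdh12, given above, stands beside these values, and their part in it was not tested.

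Markers of other cells that a whole muscle holds did not pass with the bands kept. Tendon markers were below 0 in 9 of 10 (median -0.71, 0 higher and 1 lower at an unadjusted p under 0.05). However, the mean log2 signal over 8 of them was 1.53 to 2.50 in controls and 0.44 to 2.80 in db/db muscle, which overlapped. Kera, keratocan of tendon, was 2.66, 2.78 and not measured in controls and -0.92, -1.06, -1.67 and 0.49 in db/db muscle, so that on slide 2 no control value entered the fit (-3.71 ± 0.65, adjusted p = 0.0788 with and 0.0108 without the bands). Cilp2 was at -1.29 ± 0.61 (0.313). Of 4 erythrocyte markers tested 3 were below 0 (median -0.61, 0 higher and 2 lower at the unadjusted p), with Alas2, the erythroid haem synthesis enzyme, at -1.41 ± 0.36 (0.131 and 0.0465) and Hba-a2, α-globin, at -0.90 ± 0.33 (0.227). Smooth muscle markers were below 0 in 7 of 9 (median -0.33, 0 higher and 4 lower at the unadjusted p), with Tagln at -0.72 ± 0.24 (0.198) and Cnn1 at -1.80 ± 0.63 (0.214). Of all 12815 genes, 6459 were below 0, and 9.42% were higher and 8.57% lower at the unadjusted p.

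Macrophage markers had a median of 0.16 over 14 tested, 9 above 0, against 6356 of all 12815 genes. At an unadjusted p under 0.05, 4 were higher and 0 lower, against 9.42% and 8.57% of all genes. Cd163, the haemoglobin scavenger receptor of resident macrophages, was -0.34, -1.13 and 1.80 in controls and 0.47, 0.40, 2.39 and 2.58 in db/db muscle (0.97 ± 0.25, adjusted p = 0.133), and Csf1r, their growth factor receptor, was at 0.84 ± 0.23 (0.152). Schwann cell markers had a median of 0.07 over 8, none past the unadjusted p, with Prx at 0.58 ± 0.67 (0.655). Of the lymphocyte markers 2 were tested, and Cd79b of B cells was at -1.5 ± 0.38 (0.127 with and 0.0429 without the bands). Of the skin keratinocyte markers 3 of 10 were tested, with Krt10 at -0.37 ± 0.21 (0.383) and Sfn at 0.44 ± 0.29 (0.445), and Krt5 and Krt14, which define those cells, did not pass the filter.

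Cell death and redox genes are the last group, as the study followed apoptosis and ferroptosis. Of 39 p53 signalling genes 0 were called in limma, 1 was higher and 2 lower at an unadjusted p under 0.05, and the median was 0.01. Cdkn1a, the cell cycle inhibitor p21, was 0.07, 0.21 and 0.48 in controls and -0.99, -0.74, -0.74 and -1.03 in db/db muscle, which did not overlap (-1.15 ± 0.20, adjusted p = 0.0682). Its probe lies in both bands, and without them another probe gave -0.87 (0.0990). Apaf1, the scaffold of the apoptosome, was -2.33, -2.00 and -2.31 and -3.03, -3.21, -3.39 and -2.97 (-0.92 ± 0.21, 0.107 and 0.0515). Bcl2l1, which encodes the survival protein BCL-XL, was -1.79, -2.04 and -1.21 and -1.32, -0.98, -0.05 and 0.22 (0.98 ± 0.22, 0.107). Its probe has spots in both bands, and the spots of the same probe outside them gave 1.11 (0.0244). Apaf1 and Bcl2l1 had the smallest p of 22 genes from a list of RT-PCR targets, of which 1 was higher and 3 lower at the unadjusted p (median -0.09).

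Ferroptosis and iron genes had a median of -0.06 over 24 tested, with 2 higher and 0 lower at an unadjusted p under 0.05. Gss, glutathione synthetase, was -0.92, -0.13 and -0.55 in controls and 0.75, 0.39, 0.16 and 0.28 in db/db muscle, which did not overlap (0.97 ± 0.25, adjusted p = 0.135), and Slc3a2, the partner chain of the cystine carrier, was at 0.50 ± 0.19 (0.231). Glutathione and antioxidant enzymes had a median of -0.03 over 27, 3 higher and 2 lower. Their smallest p was of Nqo1, a quinone reductase that NRF2 induces, at 1.83, 2.09 and 1.88 in controls and 3.42, 3.76, not measured and 3.48 in db/db muscle (1.62 ± 0.22, 0.0527 with and 0.00935 without the bands). Among 19 immediate early genes (median -0.09) 0 were called in limma. At the unadjusted p 5 were higher and 4 lower, against 9.42% and 8.57% of all genes. Ccn1 was at 0.98 ± 0.23 and Fos at -0.88 ± 0.23, which point opposite ways (0.112 and 0.140).

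**Figure D5:**
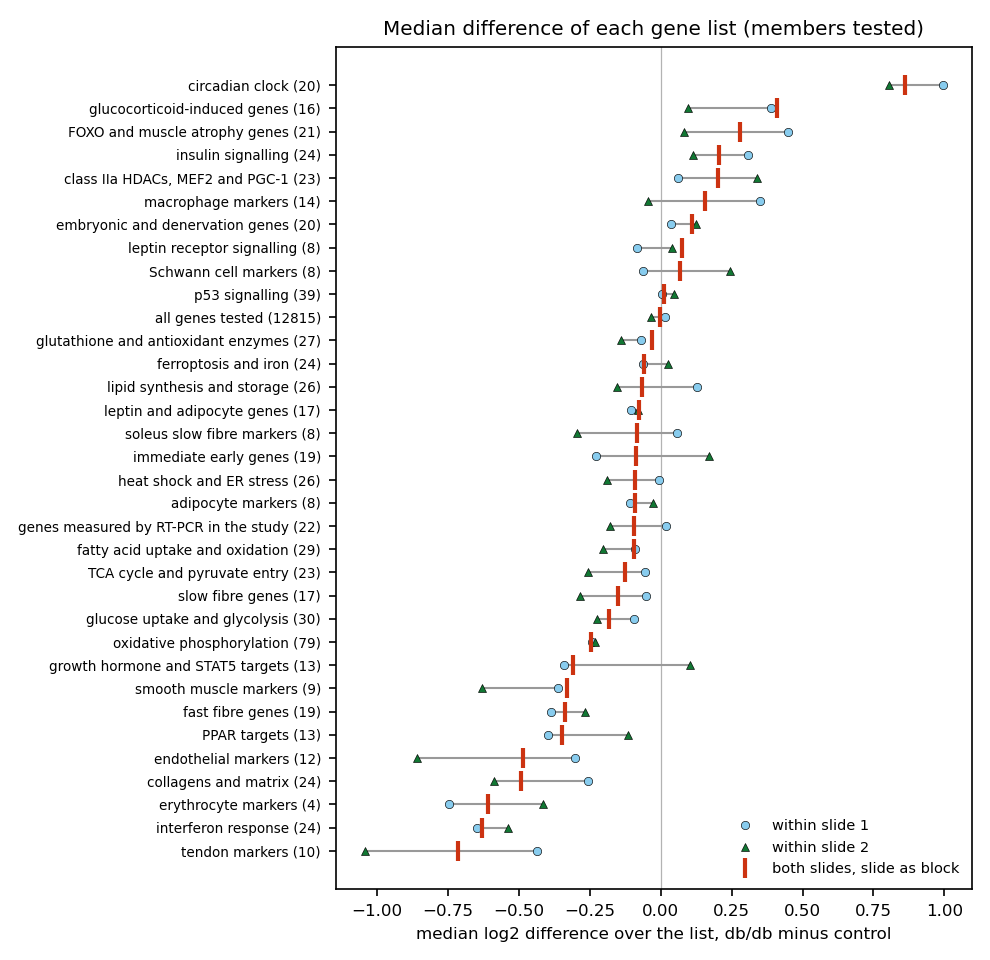
Median log2 difference, db/db minus control, over the tested members of each gene list (number tested in parentheses) and over all genes, with both slides together (red bar), within slide 1 (circle) and within slide 2 (triangle). The lists of T and B cell markers (median -0.73, 2 tested) and skin keratinocyte markers (0.20, 3 tested) are not shown. Among the lists shown, the circadian clock lies highest at 0.86, and interferon response (-0.63) and tendon markers (-0.71) lowest. A list's median is a description and carries no test.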

How the data were processed

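RNA from 7 soleus muscles, 4 of db/db and 3 of control mice, had been hybridised to 1-colour Agilent 4x44K mouse arrays. Groups and replicate numbers came from the titles and genotype labels. Per the file headers, the deposited processed intensity of each spot had been background-corrected by the authors with Agilent Feature Extraction 9.5.1.1, and probe positions are those of mm9 as written there. The label field names biotin, while the protocol names Cy3.

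Control spots and spots with outlier flags were left out, processed intensities were put on a log2 scale and the 75th percentile of all non-control spots was subtracted on each array, and the brightest probe stood for a gene. Of 41174 probes, 26998 were matched to RefSeq (GRCm38.p6) by transcript accession and 808 by a synonym of the symbol. The other 13368 kept the name in the file, which gave 28103 genes. A gene was tested when all arrays of 1 or both groups read it well above background and it was measured on at least 2 control and 3 db/db arrays. limma 3.58.1 in R 4.3.3 (lmFit and eBayes, two-sided) was fitted with group and slide, with Benjamini-Hochberg adjustment over all genes tested and a threshold of 0.05. Promoter motifs and figures were made in Python 3.11.15. The fit was also run on simulated arrays with independent normal noise and no bands, so that run does not test how the bands or single arrays move it. The number of arrays limits the precision, with intensities and no counts behind the values.

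Same-numbered arrays deviated together from their group means (r 0.420 to 0.690, 3 pairs), but so did arrays that share a slide and not a number (0.323 to 0.744), while arrays on different slides gave -0.689 to -0.391. The pairing by number, taken from the labels and this correlation, therefore carries the slide. Correlations between arrays of a group were 0.919 to 0.974 for controls and 0.827 to 0.983 for db/db muscle. Well above background were 46.8 to 50.1% of 43379 spots on control arrays and 48.3 to 54.8% on db/db arrays.

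The comparison and gene lists were chosen with earlier results of these data known, and the list of genes measured by RT-PCR was the study's own choice. The minimum of arrays measured, and the percentile over all spots rather than over those without outlier flags, were settled after counts of calls had been seen. The bands were found after the values had been seen. Genes are named by direction of call, with per-array values for the 15 largest rises and for the falls. From each list the called members, or else the 2 with the smallest p, are named, as are Lepr, Hdac4, Hdac5, Ppargc1a, Lep and Mup1, while a few members of these lists are not reported here, and other genes named were chosen after their values had been seen. The alternatives were other blocks, scalings, background correction, filters, probe summaries and priors, a plain t-test per gene, and each array or the bands left out. The deposited table of processed values was not used here, since its columns carry only running numbers and its scale is not stated, and the cell line arrays of the series were not used here.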

Additional observations from a re-analysis of the deposited data

Results flagged for a closer look

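In Prr32 the log2 signal of db/db 1 was -2.05, while those of db/db 2 to 4 were -2.93, -2.88 and -3.04, so that 1 sample stood apart from its group. This check for a sample far from the others of its group of 4 was made on 91 genes named in the text, of which Prr32 was the 1 found, and chance alone marks about 1 group in 20. Without db/db 1 the difference of Prr32 was 2.79, against 2.96 with it.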

How the results depend on the processing

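The number of genes past the adjusted p moved widely with the setting, from 39. With the slide as a random block it was 84, with a trended and robust prior 122, and with probes well above background on all 7 arrays 93 (20 of them among the 39, with fewer genes tested). It was 22 with quantile normalization, 7 with normexp background correction, and 1 without a slide block, with the replicate block or with no filter on dim probes. Leaving out an array in turn gave 1 to 81. The plain t-test per gene without a block gave 987 at an unadjusted p under 0.05 and 2 after Benjamini-Hochberg adjustment, against 2305 unadjusted in limma. Alternatives chosen after seeing the data gave 359 without the bands and 60 with the percentile taken over spots without outlier flags. Without the bands the count was 118, 238 and 184 when control 1, 2 or 3 was left out and 148, 106, 209 and 316 when db/db 1, 2, 3 or 4 was, 360 with the replicate block, 275 with quantile normalization and 1 without a slide block. The median of all genes moved to 0.13 with that percentile and to -0.15 with no filter.

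Of 621 list members tested, 7 passed. The count was 11 with a random block, 16 with the trended prior, 13 well above background on all arrays, 32 without the bands and 11 with the other percentile. It was 4 with quantile normalization or normexp, 1 without a slide block, with the replicate block as the pairing or with no filter, and 1 to 14 when an array was left out. The count of genes differing between slides was 14725 with no filter and 3550 to 5730 when an array was left out, lowest without control 3 and 3633 without db/db 4.

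Direction turned for 5 genes that had not passed. Hdac5 was -0.0315 and Myl2 0.0137 with quantile normalization, Ppargc1a was -0.0533 with normexp, and -0.00122 without db/db 3 to 0.40 without control 1 when an array was left out, Myl3 was 0.15 with the mean of all probes (Myl2 and Myl3 rest on saturated spots), and Irs1 was 0.60 without the bands. Of the other values of named genes under an alternative, 1636 kept their direction and side of the threshold, 461 kept direction and lost the threshold and 45 gained it, and 38 list medians moved by more than their spread while 732 did not. The causes were not tested.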

Other observations

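The comparison without the spots in the bands named further genes, all chosen here after their values had been seen, with adjusted p from limma. Readings near background were not turned into bounds for these genes, so the differences of dim genes are fitted values and not sizes of change. Ctrc, chymotrypsin C, was -0.45, -0.80 and -2.65 in controls and 1.69, 0.96, 2.15 and 2.14 in db/db soleus, a rise of 3.09 ± 0.49 (adjusted p = 0.0107). Cela3b, a pancreatic elastase, was -2.21, -1.96 and -4.98 and 0.53, -0.49, -0.48 and -0.59 (3.04 ± 0.44, 0.00754), and Lipf, gastric lipase, was -4.40, -4.63 and -6.27 and -2.75, -1.46, -4.55 and -4.51 (2.14 ± 0.31, 0.00792). The groups did not overlap for Ctrc and Cela3b, and for Lipf they overlapped across slides but not within either slide. Ostn, the myokine musclin, was 3.57, 2.73 and not measured in controls and 5.41, 5.64, 6.71 and 6.71 in db/db soleus (2.37 ± 0.34, 0.00901). On slide 2 no control value of Ostn entered the fit, so its difference is that within slide 1 alone. Erfe, erythroferrone or myonectin, was -5.55, -3.58 and -4.09 in controls and -1.73, -1.69, -2.27 and -2.33 in db/db soleus (2.43 ± 0.42, 0.0144).

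Some genes fell without the bands. Cthrc1, a secreted protein of activated fibroblasts, was -1.10, -1.34 and -0.56 in controls and -3.43, -3.90, -4.26 and -1.94 in db/db soleus (-2.48 ± 0.44, 0.0178). Frzb, a secreted inhibitor of WNT, was 0.78, 1.03 and 3.56 and -0.13, -1.01, 1.95 and 1.40 (-1.64 ± 0.27, 0.0132). Calcr, the calcitonin receptor, which marks quiescent muscle stem cells, was -2.12, -1.21 and -2.52 and -4.19, -3.12, -5.31 and -5.20 (-2.29 ± 0.33, 0.00748). Oasl1, an interferon-induced gene, was -2.66, -2.49 and -1.45 and -3.60, -3.87, -4.40 and -4.70 (-1.94 ± 0.36, 0.0205), and Cxcl9, an interferon-γ-induced chemokine, was -1.87, -1.85 and -3.27 and -3.28, -3.49, -5.77 and -4.64 (-1.69 ± 0.28, 0.0134). Not all genes of this kind fell. Gbp6, an interferon-inducible GTPase, rose, at 0.75, 1.55 and 2.01 in controls and 2.18, 2.58, 3.45 and 3.83 in db/db soleus (1.39 ± 0.26, 0.0229). Ahsp, the chaperone of α-globin in red cell precursors, was 0.72, -2.69 and -2.88 and -5.91, -5.69, -6.69 and -4.50 (-3.97 ± 0.77, 0.0244). On db/db 1 to 3 Ahsp read below Mup1, which was not well above background there, so the size of its fall is uncertain.

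The leptin receptor lies on chromosome 4, which held 3 of the 39 called genes (Mup1, 4933437N03Rik and Spsb1) and 6.25% of the genes tested. Their probes lie 40.9, 38.4 and 47.8 Mb from that of Lepr on mm9.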
